A study of Homo sapiens with 6 samples.

Results

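The microRNA (miRNA) hairpins MIR21, MIR22 and MIR31 were followed through the 2 arms that each gives rise to, in 6 small RNA libraries of A549 cells, an established human lung adenocarcinoma line labelled as epithelial. The arms were taken by name alone, and 6 of the 787 mature miRNAs in the deposited table matched: hsa-miR-21-5p, hsa-miR-21-3p, hsa-miR-22-3p, hsa-miR-22-5p, hsa-miR-31-5p and hsa-miR-31-3p. In the control group (3 libraries) cells were transfected with the empty plasmid pcDNA4, and in the other group (3 libraries) with pcDNA4-SMARCA4. RNA of both groups was taken 48 h after transfection. SMARCA4 (BRG1) is an ATPase with which SWI/SNF complexes remodel chromatin, and its return by transfection is called restoration in the labels. The transfection was transient, the labels mention no selection of transfected cells, and no level of SMARCA4 mRNA, which could have checked the labels, was analysed here. The series' title concerns the control of miR-222 by SWI/SNF, and it names none of these arms.

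A miRNA hairpin is cut by Drosha in the nucleus and by Dicer in the cytoplasm into a short duplex. One strand, the guide, is usually kept in an Argonaute protein while the other, the passenger, is usually degraded, so the 2 arms of a hairpin often differ widely in abundance. The seed, bases 2 to 8 of a mature miRNA, pairs with target mRNAs. miR-21 is among the most abundant miRNAs of epithelial tumours, is raised in lung adenocarcinoma and represses PDCD4. miR-22 is broadly expressed and has been described both as a tumour suppressor and as an oncogenic miRNA. miR-31 represses LATS2 in lung cancer models, and its gene lies on the short arm of chromosome 9 near CDKN2A, a region often deleted in tumours.

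The mature sequences are shown because the seed decides which other miRNAs could share targets with these arms. They come from RefSeq (GRCh38.p14), which held 4 of the 6 arms, and run 5′ to 3′ with the seed in capitals. The last line is the miRNA that shares a seed with miR-21-5p.
hsa-miR-21-5p: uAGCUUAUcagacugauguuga
hsa-miR-22-3p: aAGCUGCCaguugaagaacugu
hsa-miR-22-5p: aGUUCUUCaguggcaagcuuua
hsa-miR-31-5p: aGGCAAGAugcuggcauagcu
hsa-miR-590-5p: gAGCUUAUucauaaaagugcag

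No pair among the 4 arms shares a seed. Among the 2370 mature names in the RefSeq table, 1 other miRNA, miR-590-5p, has the seed of miR-21-5p, and 0 others have the seed of miR-22-3p, miR-22-5p or miR-31-5p. miR-590-5p was close to absent. Its reads numbered 0, 3 and 0 in the empty vector libraries and 0, 2 and 1 in the SMARCA4 libraries, replicates 1 to 3 in order, which is at or under the 3 reads that a count of 0 allows. The reads carrying this seed were therefore almost all miR-21-5p in every library.

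The 3 hairpins lie at separate loci. miR-21-5p is at chr17:59841273-59841294 on the plus strand. Its hairpin lies in an exon of 1 annotated transcript of VMP1, an autophagy gene read in the same direction (GENCODE 29, GRCh38). miR-22-3p is at chr17:1713914-1713935 on the minus strand, in an exon of all 19 overlapping transcripts of the lincRNA gene MIR22HG. miR-31-5p is at chr9:21512158-21512178 on the minus strand, in an intron of the non-coding gene MIR31HG. These positions come from the annotations, since the deposited table gives names only.

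The libraries held between 701885 and 1079944 miRNA reads, except SMARCA4 replicate 2, which held 7274329, or 8.33 times the mean of the other 5. That library also stood apart in composition. Its deposited normalized counts summed to 1.74 times the mean sum of the other 5, and of the 637 miRNAs tested, 33.9% had their lowest share of a library there and 12.4% their highest. Several of the fold changes, shares, arm ratios and likeness values that it moved are given below with and without it. Of 8 epithelial marker miRNAs 7 were listed, with a summed share of 0.0337% to 0.0489% in empty vector libraries and 0.0237% to 0.0504% with SMARCA4, and miR-205-5p was not in the table. Of these 7, 5 lay above and 2 below 0 in log2 fold change. The most abundant were miR-200b-3p, from 422.2 ± 122.99 to 189.6 ± 51.8 normalized counts (log2 fold change −1.14, limma adjusted p = 0.109), and miR-375, at 0.41 (limma adjusted p = 0.432). The scarcer miR-141-3p and miR-203a-3p were called higher with SMARCA4, at 2.55 and 2.83 (limma adjusted p = 0.0124 each). Of 7 blood cell markers 3 were listed, led by miR-486-5p and miR-142-5p, while miR-451a, miR-144-3p, miR-142-3p and miR-223-3p were not in the table, with a summed share of 0.338% to 0.408% against 0.434% to 0.470%. The endothelial pair miR-126-3p and miR-126-5p summed to 0.0420% to 0.0844% against 0.0391% to 0.0766%, and of 4 mesenchymal markers 3 were listed, led by miR-143-3p, at 0.00136% to 0.00289% against 0.00171% to 0.00397%. The part of these markers in the results below was not tested.

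As a share of all miRNA reads, the 6 arms together were lower with SMARCA4. In empty vector replicates 1, 2 and 3 they made up 30.1%, 37.9% and 27.9% of the reads. In SMARCA4 replicates 1, 2 and 3 they made up 21.3%, 21.02% and 21.04%. The groups did not overlap, and the SMARCA4 libraries lay within 0.5 percentage points of each other while the empty vector libraries did not. The mean went from 32.0% ± 5.23 to 21.1% ± 0.150 (SD, n = 3 each), a difference of −10.9 percentage points (exact two-sided permutation p = 0.1, the smallest that 3 against 3 allows). Empty vector replicate 2 was the highest library, and without it the difference was −7.91 points. Without SMARCA4 replicate 2 it was −10.8 points. In RNA from a whole culture, a lower level in every cell and a loss from some of the cells cannot be told apart.

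**Figure D1:**
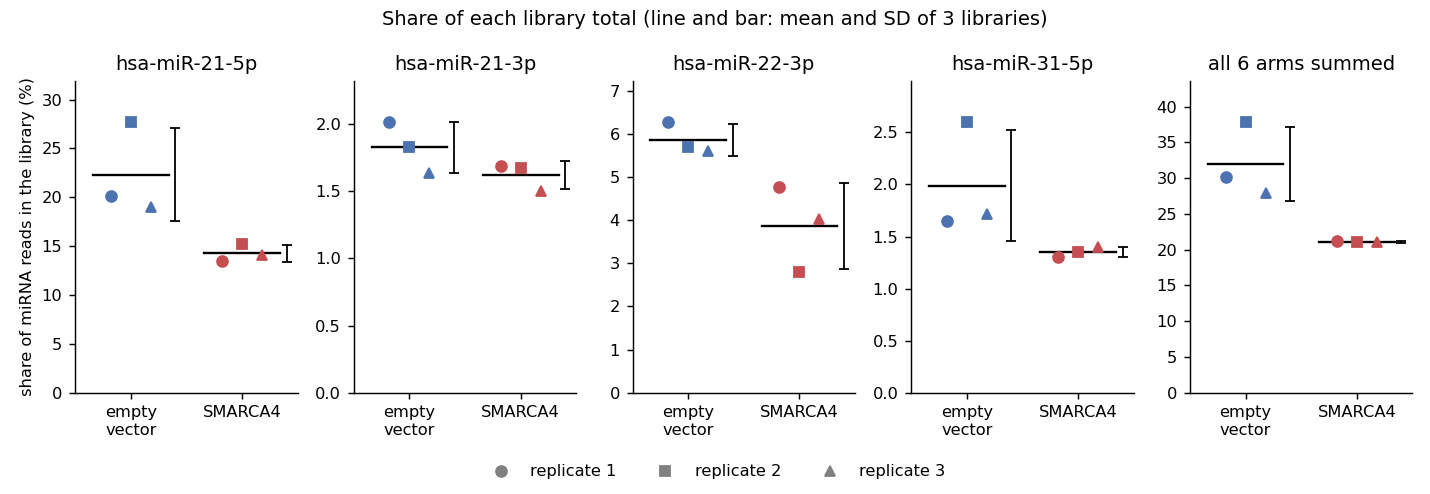
Share of all miRNA reads (percent, linear axes from 0) for the 4 abundant arms and for all 6 arms summed, with 1 point per library, a line at the mean and a bar of 1 SD. The SMARCA4 libraries lie below all empty vector libraries for miR-21-5p, miR-22-3p, miR-31-5p and the sum, and the groups overlap for miR-21-3p.

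Most of that difference came from miR-21-5p, the guide arm of MIR21. It was the most abundant of all 787 miRNAs by mean level, and the first in every library but SMARCA4 replicate 1, where it was number 3. It took 20.2%, 27.7% and 19.0% of the reads in empty vector replicates 1, 2 and 3 (177664, 259009 and 205004 reads). With SMARCA4 it took 13.5%, 15.2% and 14.1% in replicates 1, 2 and 3 (94958, 1105095 and 108128 reads). All SMARCA4 libraries were below all empty vector libraries. The mean share went from 22.3% ± 4.75 to 14.3% ± 0.847 (SD, n = 3 each). The difference was −8.03 points, or 1.56-fold (exact two-sided permutation p = 0.1). That was the largest fall in mean share of any miRNA in the table, in percentage points, where an abundant miRNA can fall furthest. By log2 fold change of normalized counts it was not extreme, as 38.9% of tested miRNAs lay lower. Without empty vector replicate 2 the difference was −5.30 points.

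miR-22-3p, the guide arm of MIR22, was number 6 by mean level and had the second largest fall in mean share in percentage points. By log2 fold change of normalized counts it was not extreme, with 38.5% of tested miRNAs lower. It took 6.28%, 5.69% and 5.60% in empty vector replicates 1, 2 and 3 (55343, 53158 and 60484 reads). The SMARCA4 libraries held 4.76%, 2.80% and 4.03% (33390, 203559 and 30980 reads). The 3 control libraries were close together, and SMARCA4 replicate 2 was the lowest of the 6. The mean share went from 5.86% ± 0.368 to 3.86% ± 0.991 (SD, n = 3 each), 1.52-fold lower (−1.99 points, exact two-sided permutation p = 0.1). Without SMARCA4 replicate 2 the difference was −1.46 points, or 1.33-fold.

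miR-31-5p, the guide arm of MIR31, took 1.65%, 2.60% and 1.71% in empty vector replicates 1, 2 and 3 (14510, 24298 and 18510 reads). It took 1.31%, 1.35% and 1.40% in SMARCA4 replicates 1, 2 and 3 (9168, 98559 and 10753 reads). As for miR-21-5p, empty vector replicate 2 was the highest library and the SMARCA4 libraries were close together. The mean went from 1.99% ± 0.533 to 1.35% ± 0.0471 (SD, n = 3 each), 1.47-fold lower (−0.63 points, exact two-sided permutation p = 0.1). Without empty vector replicate 2 the difference was −0.33 points.

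miR-21-3p, the passenger arm of MIR21, did not separate the groups in this way. Its share was 2.01%, 1.82% and 1.63% in empty vector replicates 1, 2 and 3 (17756, 17031 and 17626 reads). With SMARCA4 it was 1.68%, 1.67% and 1.503% (11804, 121640 and 11537 reads). The ranges overlap, with means of 1.82% ± 0.191 and 1.62% ± 0.101 (SD, n = 3 each, exact two-sided permutation p = 0.3). For these 4 arms the 95% Wilson intervals of a library's share were at most 2.03% of the share itself to either side. Some replicates differed by no more than that, such as miR-21-3p in SMARCA4 replicates 1 and 2, whose intervals overlapped. Such intervals cover counting error only, as amplified reads without molecular identifiers are not independent molecules.

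Groups that do not overlap were common in these libraries. Over the 637 miRNAs tested, 21.4% had a lower share in all SMARCA4 libraries than in all empty vector libraries, against 3 of these 6 arms. Of the 29 miRNAs with a mean of at least 10000 normalized counts, 14 had a lower and 15 a higher mean share with SMARCA4, 6 were lower and 7 were higher with no overlap, and the median ratio of mean shares was 1.08. The largest gain in mean share was that of miR-27b-3p, from 9.57% ± 1.38 to 14.0% ± 0.436, and miR-181a-5p went from 1.16% ± 0.544 to 2.80% ± 0.175 (SD, n = 3 each). Shares of a library sum to a whole, so a lower share of some miRNAs and a higher share of others are 1 measurement. When the 5 most abundant other miRNAs (miR-27b-3p, miR-192-5p, let-7a-5p, miR-10a-5p and miR-182-5p) were taken out of the total, the 6 arms had mean shares of 46.9% and 36.5%, 1.28-fold lower with SMARCA4, and the groups still did not overlap. Against that smaller total the groups of miR-22-3p overlapped (8.64% and 6.70%, exact two-sided permutation p = 0.2).

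The authors' normalized counts, in which each library was multiplied by 1 factor, gave smaller differences. With limma on log2(value + 1), 9 of 637 miRNAs (1.41%) passed an adjusted p of 0.05, 6 higher and 3 lower with SMARCA4, and 0 of these 6 arms were among them. At an unadjusted p under 0.05 there were 144 of the 637 miRNAs and 0 of the 6 arms. On the recovered reads edgeR called 8 of 637, and DESeq2 called 44, with 212 adjusted p undefined. Both called 0 of the 6 arms. With only 6 arms, 0 called does not set them apart from the other miRNAs. miR-21-5p was at 334995, 492585 and 335206 normalized counts in empty vector replicates 1, 2 and 3 and at 248288, 466890 and 255298 in SMARCA4 replicates 1, 2 and 3. The replicates numbered 2 were the highest in each group, and the groups overlapped. The log2 fold change was −0.30 (SE 0.35, 95% interval −1.10 to 0.50, limma adjusted p = 0.645). Without SMARCA4 replicate 2 it was −0.60 (unadjusted 95% interval −1.12 to −0.071, limma adjusted p = 0.147), and without empty vector replicate 2 it was −0.12 (limma adjusted p = 0.878).

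miR-22-3p was the 1 arm of the 6 whose normalized counts did not overlap between the groups, where 15.2% of all tested miRNAs were lower without overlap. It was at 104352, 101096 and 98899 in empty vector replicates 1, 2 and 3 and at 87305, 86001 and 73146 in SMARCA4 replicates 1, 2 and 3. The empty vector values were close together, SMARCA4 replicate 3 was the lowest library, and SMARCA4 replicate 2 lay between the other SMARCA4 libraries. The mean went from 101449 ± 2744 to 82151 ± 7826 (SD, n = 3 each), with a log2 fold change of −0.31 (SE 0.26, 95% interval −0.89 to 0.27, limma adjusted p = 0.492). Leaving out libraries 1 at a time gave values from −0.35 to −0.23.

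miR-31-5p was at 27359, 46210 and 30266 normalized counts in empty vector replicates 1, 2 and 3 and at 23972, 41640 and 25389 in SMARCA4 replicates 1, 2 and 3. The replicates numbered 2 were again the highest in each group. Its log2 fold change was −0.20 (SE 0.33, 95% interval −0.94 to 0.54, limma adjusted p = 0.747). It was −0.45 without SMARCA4 replicate 2 (limma adjusted p = 0.280), and 0.030 without empty vector replicate 2 (limma adjusted p = 0.964). miR-21-3p was at 33480, 32390 and 28821 against 30864, 51392 and 27240, where SMARCA4 replicate 2 alone was above the control range. Its log2 fold change was 0.16 (SE 0.31, 95% interval −0.53 to 0.85, limma adjusted p = 0.798), and −0.12 without SMARCA4 replicate 2 (limma adjusted p = 0.720).

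**Figure D2:**
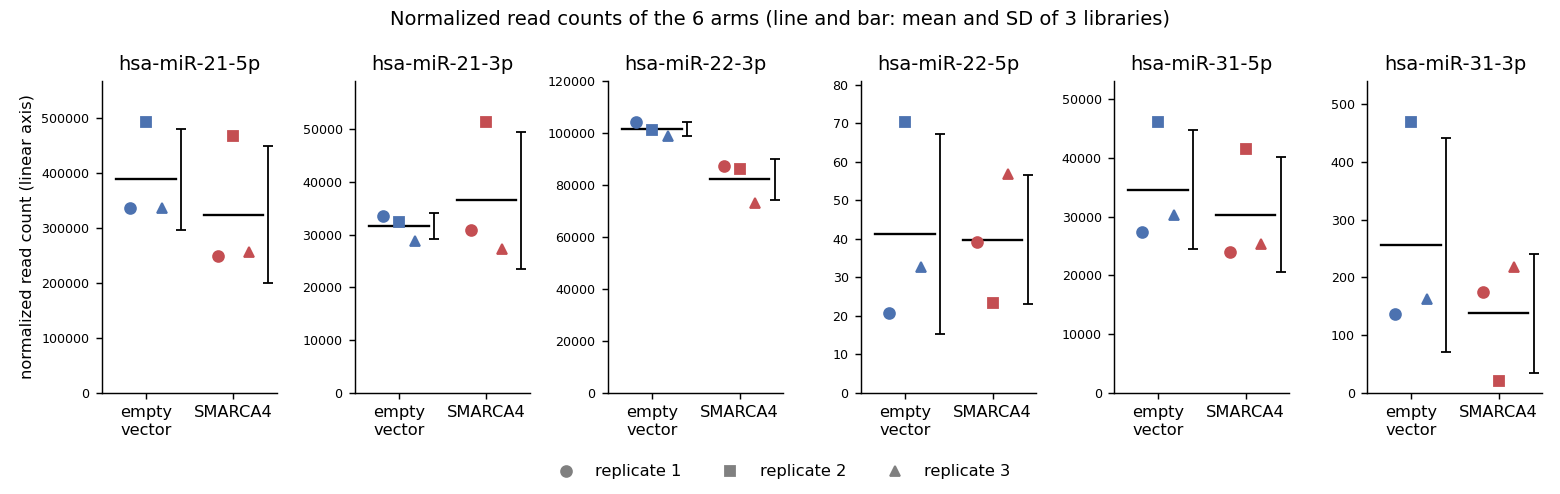
Normalized read counts of the 6 arms (linear axes from 0), with 1 point per library, a line at the mean and a bar of 1 SD over 3 libraries. Only for miR-22-3p do all 3 SMARCA4 libraries (73146 to 87305) lie below all 3 empty vector libraries (98899 to 104352).

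The size of the change therefore depended on how the libraries were scaled. With libraries rescaled to the same total, the log2 fold change was −0.62 for miR-21-5p, −0.63 for miR-22-3p and −0.52 for miR-31-5p (limma adjusted p = 0.135, 0.175 and 0.238), with unadjusted 95% intervals that left out 0 for miR-21-5p and miR-22-3p, and miR-21-3p turned to −0.17. The median over the 637 tested miRNAs itself shifted by −0.26 under that scaling. Relative to the shift, the 3 guide arms differed from their values under the authors' scaling by less than 0.1. Quantile normalization gave −0.24 for miR-21-5p, −0.87 for miR-22-3p and −0.76 for miR-31-5p (limma adjusted p = 0.677, 0.198 and 0.166). Its unadjusted 95% intervals left out 0 for miR-22-3p (−1.70 to −0.047) and miR-31-5p (−1.40 to −0.11). Median-of-ratios scaling gave −0.31, −0.32 and −0.21 for the same arms. No setting listed here brought any of the 6 arms past the threshold, and the lowest limma adjusted p of any was 0.135.

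**Figure D3:**
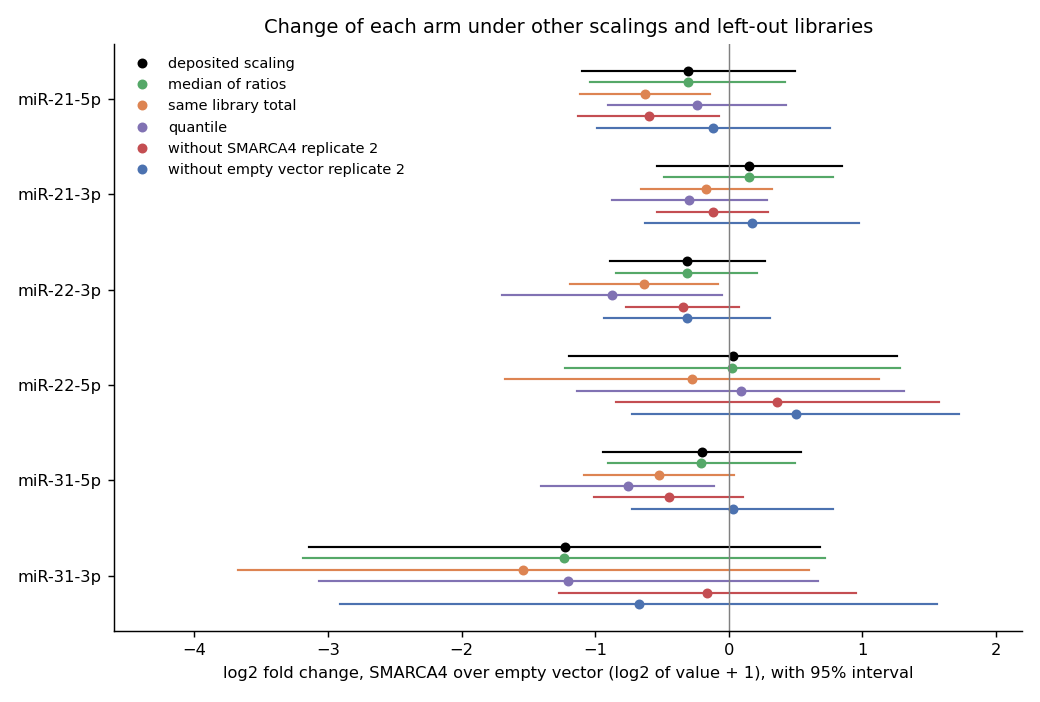
Log2 fold change of SMARCA4 over empty vector for each arm (log2 of value + 1), as a point with its 95% interval from limma, under 4 scalings and with replicate 2 of either group left out. miR-21-5p and miR-22-3p lie below 0 under all 6 settings drawn, with miR-21-5p between −0.62 and −0.12 and miR-22-3p between −0.87 and −0.31.

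The ratio of 2 arms within a library does not depend on a factor that multiplies the whole library. Within MIR21, miR-21-3p made up 9.09%, 6.17% and 7.92% of the reads of both arms in empty vector replicates 1, 2 and 3. It made up 11.1%, 9.92% and 9.64% in SMARCA4 replicates 1, 2 and 3. The passenger arm thus took a larger part of the hairpin's reads in every SMARCA4 library than in any empty vector library. The mean log2 ratio of miR-21-3p to miR-21-5p went from −3.60 ± 0.306 to −3.14 ± 0.117 (SD, n = 3 each), a 1.37-fold higher ratio (log2 difference 0.46, exact two-sided permutation p = 0.1). Leaving out any 1 library gave log2 differences from 0.29, without empty vector replicate 2, to 0.59, without empty vector replicate 1. Quantile normalization, which is no such factor, put miR-21-3p at −0.29 and miR-21-5p at −0.24, and so did not give the higher ratio. Arm ratios of hairpins other than MIR21, MIR22 and MIR31 were not computed, so the shift is not shown to be particular to MIR21.

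The passenger arms of the other hairpins were scarce. miR-31-3p, the passenger arm of MIR31, had 72, 247 and 99 reads in empty vector replicates 1, 2 and 3, or 81.7, 264.5 and 91.7 RPM (reads in every 1000000 miRNA reads of the library). In SMARCA4 replicates 1, 2 and 3 it had 67, 48 and 92 reads, or 95.5, 6.60 and 119.8 RPM. SMARCA4 replicate 2, the deepest library, was thus the lowest by far, with a 95% Wilson interval of 4.98 to 8.75 RPM, while SMARCA4 replicates 1 and 3 lay within the control range. Of the MIR31 reads, miR-31-3p made up 0.494%, 1.01% and 0.532% in the empty vector libraries, replicates 1 to 3 in order. With SMARCA4 it made up 0.726%, 0.0487% and 0.848%. Its guide arm, at 1.35% of that library, lay between the other SMARCA4 libraries. The log2 fold change of miR-31-3p was −1.23 (SE 0.85, 95% interval −3.14 to 0.69, limma adjusted p = 0.411), and −0.16 without SMARCA4 replicate 2 (limma adjusted p = 0.863). The log2 ratio of miR-31-3p to miR-31-5p differed by −1.05 between the groups (exact two-sided permutation p = 0.8) and by 0.29 without that library. Among the 288 tested miRNAs with a mean of 10 to 300 normalized counts, 45.5% had their lowest share in SMARCA4 replicate 2.

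miR-22-5p, the passenger arm of MIR22, was read 11, 37 and 20 times in the empty vector libraries and 15, 55 and 24 times in the SMARCA4 libraries, replicates 1 to 3 in order. In RPM these were 12.5, 39.6 and 18.5 against 21.4, 7.56 and 31.3, so SMARCA4 replicate 2 was again the lowest library. There was 1 read of miR-22-5p for between 1291 and 5031 reads of miR-22-3p, a wider gap between arms than in MIR21 or MIR31 in all 6 libraries. Its 95% Wilson interval in single libraries reached from 26.7% to 61.6% of the share to either side. The log2 fold change was 0.035 (SE 0.54, 95% interval −1.19 to 1.26, limma adjusted p = 0.975), and its sign changed with 4 of the 6 libraries left out in turn, so no direction was detectable.

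**Figure D4:**
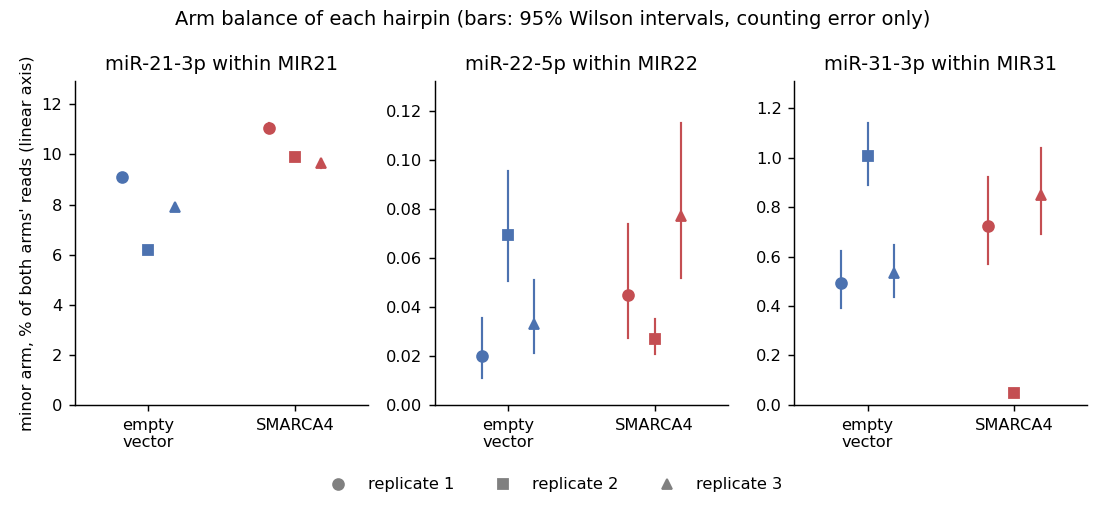
Reads of the less abundant arm as a percent of both arms' reads (linear axes from 0), with 1 point per library and bars for 95% Wilson intervals. For MIR21 the 3 SMARCA4 libraries (9.64% to 11.1%) lie above the 3 empty vector libraries (6.17% to 9.09%), and for MIR31 SMARCA4 replicate 2 stands apart at 0.0487%.

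The order of the arms by mean normalized count was miR-21-5p, miR-22-3p, miR-21-3p, miR-31-5p, miR-31-3p and miR-22-5p. Adapter ligation differs between miRNAs, so an order within a library is less certain than a comparison of 1 miRNA between libraries. The passenger arm miR-21-3p and the guide arm miR-31-5p were neighbours whose order varied. miR-31-5p was at 0.817, 1.43 and 1.05 times miR-21-3p in empty vector replicates 1, 2 and 3 and at 0.777, 0.810 and 0.932 times in SMARCA4 replicates 1, 2 and 3. miR-31-3p and miR-22-5p also changed places, with miR-22-5p slightly above in SMARCA4 replicate 2 alone.

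Ratios between the abundant arms showed which of them moved together. miR-21-5p held 12.2, 10.7 and 11.1 times the reads of miR-31-5p in empty vector replicates 1, 2 and 3 and 10.4, 11.2 and 10.1 times in SMARCA4 replicates 1, 2 and 3. This ratio varied little, although miR-21-5p itself ranged from 13.5% to 27.7% of a library. miR-22-3p held 3.12, 3.12 and 3.43 times the reads of miR-21-3p in empty vector replicates 1, 2 and 3 and 2.83, 1.67 and 2.69 times in SMARCA4 replicates 1, 2 and 3, with no overlap. Of the 6 ratios among the 4 abundant arms, this one and the arm ratio of MIR21 were the 2 whose groups did not overlap. How often the groups fail to overlap among ratios of other miRNAs was not counted. Both had an exact permutation p of 0.1, and of 0.30 after adjustment over the 6.

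Likeness to other miRNAs was measured as Pearson's r of log2(value + 1) over the 6 libraries, among 420 others with a mean of at least 10, and is given as a description, since all values come from the same libraries. The pattern of miR-21-5p was most like those of miR-31-5p (r = 0.97), miR-30a-3p (r = 0.96) and miR-30e-3p (r = 0.96). That of miR-31-5p was most like miR-369-3p (r = 0.97), miR-21-5p (r = 0.97) and miR-381-3p (r = 0.97), of which miR-369-3p and miR-381-3p belong to the imprinted 14q32 cluster. miR-21-3p was most like let-7f-5p (r = 0.97), miR-194-3p (r = 0.97) and miR-92a-1-5p (r = 0.96), and its r with miR-21-5p, from the same hairpin, was 0.64, which put miR-21-5p at number 79 among the 420. let-7f-5p was at 26896 ± 1060 normalized counts in empty vector cells and 55418 ± 58347 with SMARCA4 (SD, n = 3 each), and its share was highest in SMARCA4 replicate 2. Without that library the r of miR-21-3p with let-7f-5p, miR-194-3p and miR-92a-1-5p was 0.68, 0.62 and 0.63, over 5 libraries.

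miR-22-3p was most like miR-152-5p (r = 0.98), the entry the table writes as miR-548f-3p@ (r = 0.97) and miR-573 (r = 0.96), which had as few as 3, 1 and 4 reads in a library. miR-152-5p was at 45.6 ± 1.73 normalized counts in empty vector cells and 13.8 ± 5.98 with SMARCA4 (SD, n = 3 each). miR-31-3p was most like miR-382-5p (r = 0.98), miR-331-3p (r = 0.95) and miR-342-3p (r = 0.92), and miR-22-5p was most like miR-495-3p (r = 0.85), miR-342-3p (r = 0.82) and miR-1254 (r = 0.81). Without SMARCA4 replicate 2 the r of miR-31-3p with miR-382-5p, miR-331-3p and miR-342-3p was 0.89, 0.66 and 0.71. The arms of MIR31 had an r of −0.16 over all 6 libraries and of 0.83 without that library, so the negative value rests on it. The arms of MIR22 had an r of −0.28, and of −0.44 without it. For miR-21-5p, miR-22-3p and miR-31-5p the r with each of the 3 named miRNAs stayed at 0.95 or above without it.

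Of the miRNAs from hairpins within 1 Mb of these loci, 9 were tested and 0 passed. Over all 637 tested miRNAs 1.41% passed, so 0 of 9 is near the background. MIR4729, MIR4737 and MIR6776 also lie there and have no arm in the table. MIR132 and MIR212, which are transcribed together and lie 335920 and 336283 bases from MIR22, gave miR-132-3p and miR-212-3p at log2 fold changes of 0.56 and 1.17 (limma adjusted p = 0.317 and 0.111). Both values are above 0, whereas miR-22-3p was at −0.31. MIR301A and MIR454, 690044 and 703393 bases from MIR21, gave miR-301a-3p at 0.11 and miR-454-3p at 0.44 (limma adjusted p = 0.842 and 0.518). miR-301a-5p, miR-132-5p, miR-212-5p and miR-454-5p had log2 fold changes of −1.38, −0.49, 0.99 and −0.077 (limma adjusted p from 0.285 to 0.9498). miR-3183, near MIR22, had at most 2 reads in any library. MIR491, 795926 bases from MIR31, was listed by miR-491-3p alone, with 1 read over all 6 libraries, and was not tested.

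Lists of related miRNAs, chosen with earlier results of these data known, place these arms among others of similar standing. Of 16 miRNAs often raised in lung adenocarcinoma, a class in which miR-21-5p and miR-31-5p are usually counted, 13 were tested and 0 passed in either direction. Of these, 9 lay above and 4 below 0 on the log2 scale, and the median was 0.53, against −0.047 over all 637. The most abundant were miR-182-5p at 0.62 on that scale and miR-92a-3p, of the miR-17-92 cluster, at 0.57 (limma adjusted p = 0.230 and 0.305). The other listed members of that cluster were among the 4 below 0. miR-17-5p, miR-19a-3p and miR-20a-5p were at −0.60, −0.11 and −0.84 (limma adjusted p = 0.232, 0.897 and 0.226). miR-21-5p and miR-31-5p also lay below 0, at −0.30 and −0.20, unlike the list's median, and these differences were not tested against the list.

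Of 16 miRNAs often lowered in lung adenocarcinoma, 12 were tested and 0 passed, with 5 above and 7 below 0 and a median log2 fold change of −0.23. The most abundant were miR-30a-5p at −0.38 and miR-30d-5p at −0.53 (limma adjusted p = 0.494 and 0.230). Of 12 miRNAs linked to TGF-beta signalling and mesenchymal cells, a setting in which miR-21 processing is known to rise, 7 were tested and 0 passed. All 7 lay above 0 on the log2 scale, where 48.4% of all 637 did, and their median was 1.08 against −0.047. The 7 are not the whole list. miR-145-5p, miR-199a-5p, miR-199b-5p and miR-214-3p had means under 1 and were not tested, and miR-199a-3p was not in the table. Of the 7, miR-155-5p was scarce, with means of 1.90 normalized counts in empty vector and 10.5 in SMARCA4 libraries. As the list was chosen with earlier results of these data known, this comparison is a description only. With 1.41% of all miRNAs called, 0 called among lists of this size is near the background. The most abundant were miR-181a-5p at 1.69 and miR-10b-5p at 1.22 (limma adjusted p = 0.0656 each).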

How the data were processed

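Small RNA was sequenced from 3 empty vector and 3 SMARCA4 libraries, grouped by their titles. Replicates are described as independent and biological, and p-values measure the spread between these libraries only. RNA came from a mirVana kit and libraries from a TruSeq small RNA kit, per the labels' protocols, and bcl2fastq 2.18.0.12 and GRCh38 are named in the submitters' processing notes. For trimmer, aligner, counter and miRNA annotation, names were not given in the sources used here. The deposited signal is 1 normalized read count per mature miRNA, and the table's name refers to TMM. Every value was a whole multiple of its library's smallest value (100% within 1e-06 reads), which gave the read counts and shares. Replicates differed by more than sampling noise (chi-square per degree of freedom at least 6.61).

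limma 3.58.1 (R 4.3.3, mean-variance trend, group term) was fitted on log2(value + 1) over 637 miRNAs with a mean of at least 1, leaving 150 untested. Benjamini-Hochberg adjustment was used, with a threshold of 0.05. The fit was tested on simulated data, which held no library of outlying composition such as SMARCA4 replicate 2. That test therefore does not cover the effect of such a library. Fold changes of log2(value + 1) understate changes of scarce miRNAs. edgeR 4.0.16 (quasi-likelihood, called 8 miRNAs) and DESeq2 1.42.0 (212 adjusted p undefined) were run on the recovered reads. Shares and ratios were compared by exact permutation. Members and lists were chosen with earlier results of these data known. Named miRNAs are the 6 arms, the 3 most like each, same-seed miRNAs, neighbours within 1 Mb, the 5 most abundant, and the 2 most abundant and any called members of each list; others were chosen after their values were seen.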

Additional observations from a re-analysis of the deposited data

How the results depend on the processing

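The number of miRNAs called over the whole table was 9. It was 23 without the filter on low values, 44 by DESeq2, and between 0 and 41 with 1 library left out, and in none of these settings was any of the 6 arms called. Without empty vector replicate 1 or SMARCA4 replicate 1 the count was 0, at unadjusted counts of 103 and 119, without SMARCA4 replicate 2 it was 41, without empty vector replicate 3 it was 2 and without SMARCA4 replicate 3 it was 1. Scaling to 1 common library total called 12, 4 higher and 8 lower, against 6 higher and 3 lower. With the replicate block 13 were called, 8 higher and 5 lower, and no call among the 6 arms changed. Same-numbered replicates of the groups deviated together only weakly (correlations 0.0731, 0.0882 and 0.0136), yet 5 of 6 libraries correlated best with their own number. With so few libraries these values cannot decide whether the numbers pair the samples, and the labels do not say. miR-21-5p, miR-22-3p and miR-31-3p kept the sign of their log2 fold change in all 17 alternatives. miR-21-3p turned to −0.17 with the same total, to −0.29 with quantile normalization, and ranged from −0.12 to 0.34 with 1 library left out. miR-31-5p ranged from −0.45 to 0.030, and turned only without empty vector replicate 2. miR-22-5p turned to −0.27 with the same total, to −0.086 by edgeR and −0.090 by DESeq2, and ranged from −0.36 to 0.50 with 1 library left out. The share of miR-21-3p was higher by 0.113 points against the total without the 5 most abundant other miRNAs. With 1 library left out, the difference between the groups in log2 arm ratio ranged from −0.077 to 0.83 for MIR22. For MIR31 it ranged from −1.78 to 0.29. Alternatives for miR-22-5p and miR-31-3p were chosen after seeing the data. The cause of these turns was not tested. With 1 library left out an exact test cannot go under 0.2 here. Depth limits miR-22-5p, with as few as 11 reads in a library. For miR-31-3p the spread between libraries, 6.60 to 264.5 RPM, was wider than the counting intervals. Likeness without SMARCA4 replicate 2 was also chosen after seeing the data.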
